A study of Rattus norvegicus with 64 samples.

Results

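The transcripts described here are 80 rat messenger RNAs that were lower in liver 10 h after acetaminophen than after vehicle, while they lay near the vehicle level in liver at 5 h. They were chosen from 28420 transcripts with the measured levels themselves. Levels are in CPM, each transcript's estimated count scaled to the total of its library. Each ratio in the choice was the median CPM of the 8 acetaminophen libraries plus 0.5, divided by the median CPM of the 8 vehicle libraries plus 0.5. A member had a liver ratio of at most 0.57 at 10 h, a liver ratio of 0.8 to 1.25 at 5 h and a kidney ratio above 0.67 at 5 h. Its vehicle liver level at 10 h over that at 5 h lay between 0.57 and 1.75, its vehicle liver median at 10 h was at least 1 CPM, and at least 7 of 8 acetaminophen livers were below that median. The vehicle minimum left 12398 transcripts, the 10 h limit 425 of these and the count of low livers 356. The 5 h liver limits left 99, the kidney limit 95 and the vehicle limits 80. These 4 contrasts therefore serve as description only; kidney at 10 h entered no step of the choice.

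The RNA came from livers and kidneys of Sprague Dawley rats given acetaminophen at 2 g/kg or, as control, vehicle alone, which was 50% polyethylene glycol at 6 ml/kg. Tissue was taken 5 h or 10 h later from 32 rats, and the 64 libraries fall into 8 groups of 8 by tissue, agent and time. The labels name a strain but no sex, age, animal number or batch, and they do not tie a liver library to a kidney library of the same rat. Estimated counts totalled 21467448 to 29496773 per liver library and 18039111 to 26148119 per kidney library. In liver vehicle at 5 h, replicate 6 stood apart from the other 7: its median over the 12398 transcripts was 0.721 of theirs, and over the members 0.575. Without it the same rule gave 70 members, 62 of them among the 80.

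Acetaminophen is cleared mainly by the liver. Cytochrome P450 enzymes of the hepatocyte convert part of a dose to a reactive quinone imine, which glutathione neutralises until it is depleted, and the kidney carries some of the same enzymes. The level of a messenger RNA in a tissue is set by its synthesis and its decay, and a bulk library reads the sum over all cells. Fewer cells of a type and less RNA per cell cannot be told apart in such libraries. The deposited transcript identifiers match no gene symbol in the reference used here, so functions cannot be given; 2 members are named by identifier and the others by length, level or rank.

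Across the members the liver ratio at 10 h ran from 0.0877 to 0.569 with a median of 0.514, beside a median of 1.02 over the 12398 transcripts. At 5 h the same ratio had a median of 0.927, with 0.961 over the 12398. The median member stood at 6.26 CPM in vehicle liver at 5 h and 5.96 in acetaminophen liver at 5 h. It stood at 7.06 CPM in vehicle liver at 10 h and 2.96 in acetaminophen liver at 10 h. Only the last of these 4 medians was low, a pattern largely set by the choice. In 59 members all 8 acetaminophen livers at 10 h were below the vehicle median, and in 21 members 7 of 8 were.

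The lower level was seen in each of the 8 libraries, a direction that the choice of members fixes. Each library was described by the median, over the members, of the log2 difference from the same-time vehicle median. In acetaminophen livers at 10 h this value lay between -1.30 and -0.76, and 72 to 80 of the 80 members were below the vehicle median. The same measure over the 12398 transcripts lay between -0.19 and 0.09 in these 8 livers. Vehicle livers at 10 h lay between -0.29 and 0.07 for the members, so the groups did not overlap. Acetaminophen livers at 5 h lay between -0.32 and 0.08. Vehicle livers at 5 h lay between -0.04 and 0.11 apart from replicate 6 at -0.76, where the 12398 transcripts were low too, at -0.42. The members took 0.179% to 0.342% of all counts in acetaminophen livers at 10 h and 0.325% to 0.561% in vehicle livers.

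**Figure D1:**
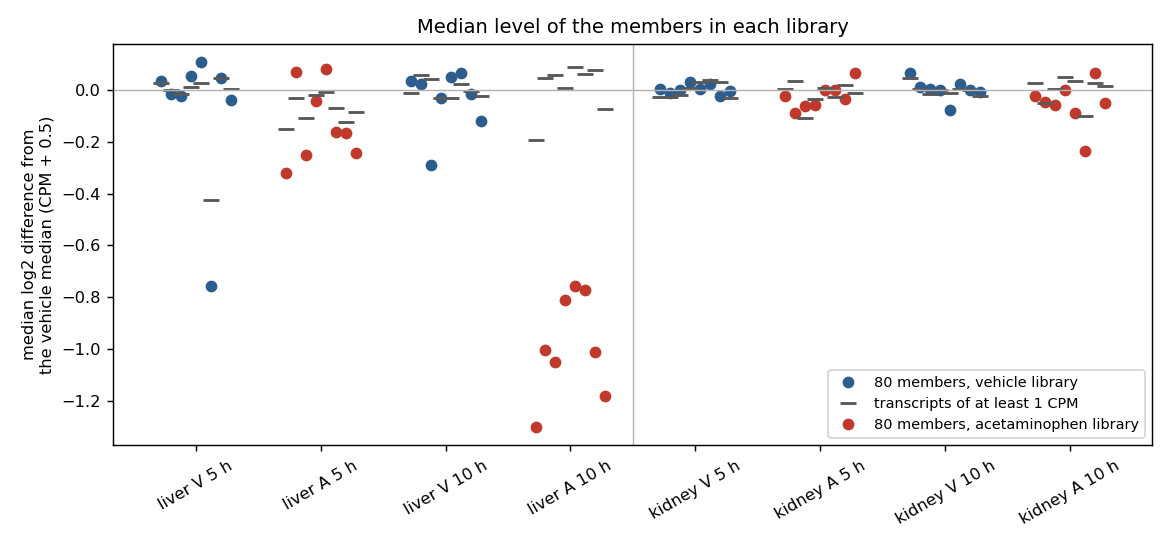
Each circle is 1 library; the y axis is the median over the 80 members of the log2 difference (CPM + 0.5) from the vehicle median of the same tissue and time, and grey dashes give the same for the 12398 transcripts of at least 1 CPM in vehicle liver. The 8 acetaminophen livers at 10 h lie at -0.76 or lower, a direction fixed by the choice of members, while the grey dashes stay near 0 except in vehicle liver replicate 6 at 5 h.

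The acetaminophen livers differed among themselves in the level of the members. Replicate 1 at 10 h was the lowest of its group for 29 members and replicate 5 the highest for 31. Replicate 1 was also the lowest for 31.2% of the 12398 transcripts, and its median over them was the lowest of the group, at -0.19. Replicate 5 had the highest median over the 12398 transcripts, at 0.09. The part of these library-wide levels in the member levels was not tested. Among vehicle livers at 10 h, replicate 3 was the lowest for 30 members, beside 12.6% of the 12398 transcripts. Its members summed to 3252 CPM, against 4005 to 5606 CPM in the other 7 vehicle livers.

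**Figure D2:**
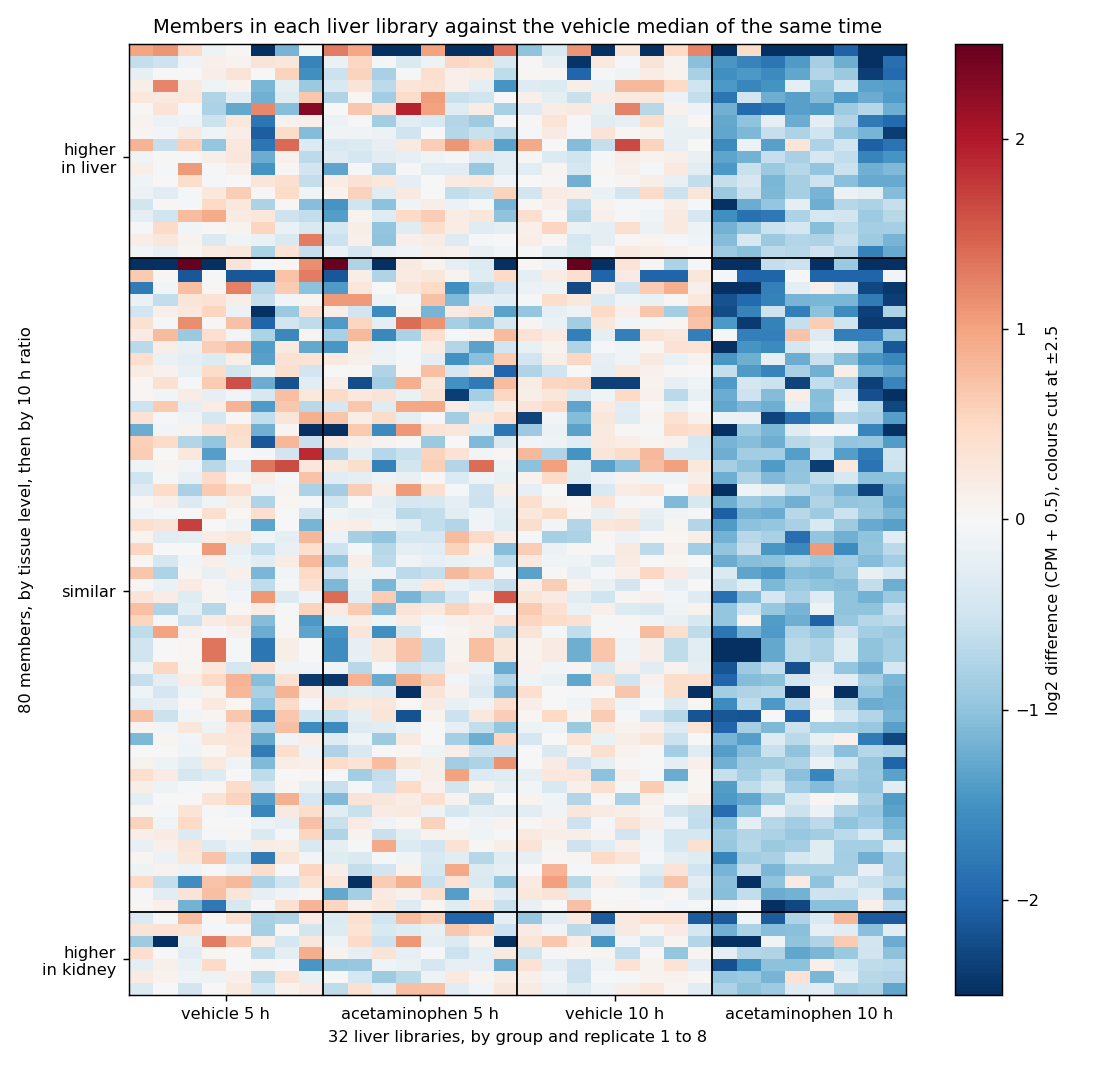
Each row is a member and each column 1 of 32 liver libraries; colour is the log2 difference (CPM + 0.5) from the vehicle median of the same time. Rows are grouped by the vehicle kidney level (18 higher in liver, 55 similar, 7 higher in kidney). The right block, acetaminophen at 10 h, is blue in nearly every row, and replicate 6 of vehicle at 5 h shows a blue column; scattered dark cells are members that dropped to about 0 in single libraries.

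The most abundant member was ENSRNOT00000051244, a transcript of 2025 bases that was nearly absent from kidney. Its vehicle livers at 10 h read 1581, 1607, 683, 1560, 1640, 1730, 1383 and 1029 CPM from replicate 1 to 8. The acetaminophen livers at 10 h read 1038, 1180, 716, 884, 1097, 756, 658 and 655 CPM. Of the vehicle livers only replicates 3 and 8 reached into the acetaminophen range. The log2 change was -0.66 ± 0.18 (SE, edgeR), from a mean of 1402 ± 362 CPM (SD, n = 8) to 873 ± 208 (SD, n = 8). At 5 h the acetaminophen livers ran from 928 through a median of 1252 to 1399 CPM and the vehicle livers from 724 through 1091 to 1472. The groups at 5 h overlapped throughout. The median of 820 CPM in acetaminophen livers at 10 h was thus below both medians of 5 h as well as below the 10 h vehicle median of 1570 CPM.

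Vehicle livers read ENSRNOT00000051244 higher at 10 h than at 5 h, and this held for most members. The vehicle ratio of 10 h over 5 h had a median of 1.24 and was under 1 in 13 of 80 members, while it was under 1 for 61.1% of the 12398 transcripts. The vehicle 10 h livers enter this ratio and the 10 h choice alike, so a high 10 h vehicle level favoured selection. Set against the vehicle livers of 5 h, acetaminophen at 10 h had a median ratio of 0.617 and a highest ratio of 0.919, and 33 members were at or under 0.57. That ratio is the product of 2 bounded by the rule, so its place under 1 was fixed by the choice. Against the acetaminophen livers of 5 h the median was 0.630, and 77 of 80 were under 1, a direction largely set by the choice as well. In kidney, vehicle at 10 h over 5 h had a median of 1.05 over the members and 1.01 over the 12398 transcripts. None of the 69 members tested was called in that kidney contrast by edgeR, beside a background of 0.0405% of transcripts; 10 had an unadjusted p under 0.05 (5.8% of all transcripts), and DESeq2 called 1 (0.226% of all).

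Of the 80 members, 8 reached 100 CPM in vehicle liver at 10 h, 26 lay between 10 and 100 CPM and 46 between 1 and 10 CPM. The 2 most abundant held 50.3% of the summed member level. The second of these, of 2920 bases, ran from 863 through 987 to 1247 CPM in vehicle livers at 10 h and from 189 through 479 to 699 CPM in acetaminophen livers. Every acetaminophen liver was below every vehicle liver, and the log2 change was -1.04 ± 0.22. At 5 h its vehicle livers ran from 196 through 825 to 1131 CPM and its acetaminophen livers from 500 through 665 to 824, inside the vehicle range.

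A liver transcript of 1610 bases had the largest fall of the 8 abundant members. Its vehicle livers at 10 h ran from 88.7 through 488 to 613 CPM and its acetaminophen livers from 56 through 166 to 275 CPM, a log2 change of -1.36 ± 0.32. The lowest vehicle value was again replicate 3, followed by replicate 8 at 235 CPM; the other 6 lay at 425 CPM or above, over all acetaminophen livers. A transcript of 1477 bases ran from 44.3 through 177 to 201 CPM in vehicle livers and from 34 through 62.9 to 107 CPM in acetaminophen livers. Here, too, vehicle replicates 3 and 8 were the 2 lowest, at 44.3 and 101 CPM. These transcripts and ENSRNOT00000051244 varied alike from liver to liver. Over 32 livers, as deviations of log2(CPM + 0.5) from the group mean, Pearson's r was 0.90 between the 1610-base and the 1477-base transcript. It was 0.84 between ENSRNOT00000051244 and the 1610-base transcript and 0.74 between ENSRNOT00000051244 and the 1477-base transcript. These are descriptions over shared libraries, picked after the values were seen.

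Such likeness was uncommon among the members. The median r over all 3160 pairs of members was 0.11, and 10 pairs reached 0.8; no pair was at -0.8 or lower. One of the 10 pairs was 2 members of 4857 bases with identical estimated counts in every library (tolerance 0.001), which count as 1 measurement, so the 80 hold 79 distinct series of values. Others of the 10 pairs joined the 1266-base and the 516-base member (r = 0.92) and the 2688-base and the 381-base member (r = 0.86). A 3168-base member, the one called in kidney at 10 h below, paired with the 2376-base member (r = 0.92). Each of these also paired with the 1008-base member (r = 0.83 and 0.82). Within the 8 acetaminophen livers at 10 h alone the median r over pairs was 0.20, and within the 8 vehicle livers 0.11.

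**Figure D3:**
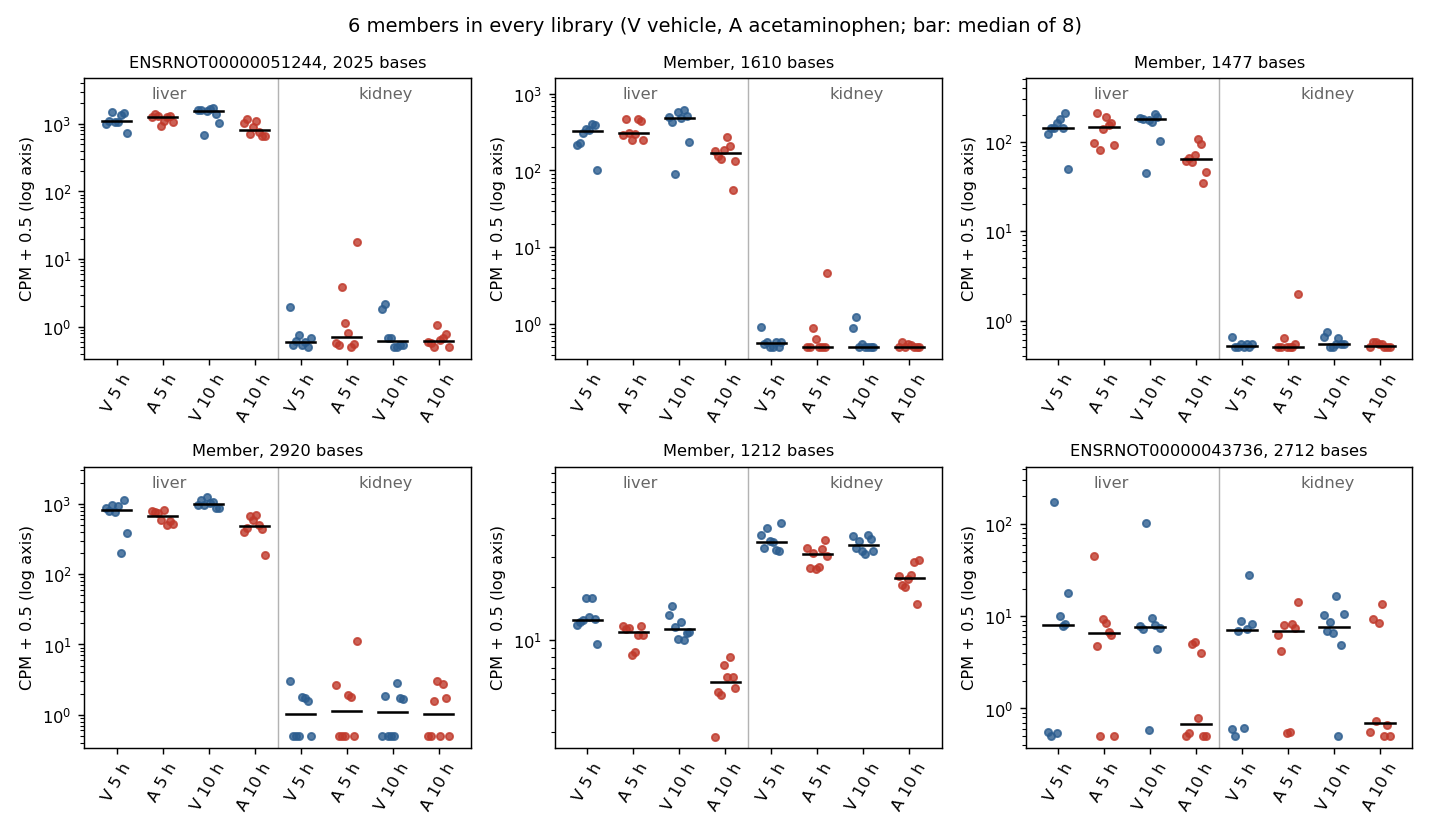
Each point is 1 library and the bar the median of 8; the y axis is CPM + 0.5 on a log scale, blue for vehicle (V) and red for acetaminophen (A), liver left and kidney right of the line. The 2025-, 1610-, 1477- and 2920-base members are low at 10 h in acetaminophen livers and near 0 in kidney, the 1212-base member is low at 10 h in both tissues, and ENSRNOT00000043736 ranges from about 0 to several CPM or more within each group.

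In 10 members no acetaminophen liver at 10 h reached the lowest vehicle liver; among the 12398 transcripts this was so for 2.06%, and the choice used these values. Without vehicle replicate 3 the number was 16 members and 2.44% of transcripts. That replicate was picked for its low values, and leaving out a vehicle library can only raise or keep such a number. The largest fall of the 10 belonged to a transcript of 2706 bases. It ran from 5.71 through 7.39 to 10.2 CPM in vehicle livers and from 1.05 through 1.90 to 3.08 CPM in acetaminophen livers, a log2 change of -1.88 ± 0.27. At 5 h the same transcript ran from 4.08 through 6.48 to 8.43 CPM in vehicle livers. In acetaminophen livers at 5 h it ran from 2.74 through 6.07 to 14.1 CPM. A low median at 10 h and a median near vehicle at 5 h were fixed by the choice. A transcript of 2428 bases formed narrow groups, with 29.96 to 42.9 CPM in vehicle and 15.4 to 21 CPM in acetaminophen livers at 10 h. Other members without overlap were of 4107 bases (216 to 345 CPM against 110 to 193), 516 bases (57.6 to 89.9 against 23.4 to 53.4) and 1744 bases (25.3 to 43.6 against 13 to 22). The remaining 5 measured 1212, 1380, 1719, 2920 and 4131 bases.

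Across all 80, the edgeR log2 change at 10 h ran from -3.44 to -0.57 with a median of -1.0, beside 0.02 over all 14943 transcripts tested. The test called 52 members lower at an adjusted p under 0.05, with 6.08% of all transcripts called lower; the choice used this contrast. The 28 that were not called had about the same median change, -0.95 against -1.01 for the called. Their vehicle median was 4.69 CPM against 10.7, and their median standard error 0.55 against 0.25. In liver at 5 h, 0 members were called beside a background of 13.9% of transcripts; 2 had an unadjusted p under 0.05 in edgeR (27.5% of all). DESeq2 called 0 (16.8% of all), and limma called 3 on log2(TPM + 1) and 2 on log2(TPM + 0.1), where it called 20.1% and 18.6% of all. The median change at 5 h was -0.08. The choice bounded the 5 h liver ratio as well, so few calls at 5 h were largely set by it.

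The lowest ratio of all belonged to ENSRNOT00000043736, of 2712 bases, whose values ranged from near 0 to several CPM or more within each group. In vehicle livers at 10 h it read 7.28, 6.70, 103, 0.0807, 9.19, 7.49, 3.93 and 7.04 CPM from replicate 1 to 8. In acetaminophen livers at 10 h it read 0, 0.0485, 4.55, 4.76, 0.295, 3.51, 0 and 0 CPM. Near-zero libraries were thus 5 of 8 with acetaminophen and 1 of 8 with vehicle, and all 3 of the other acetaminophen livers lay between 3.51 and 4.76 CPM. The log2 change was -3.44 ± 1.34, and the test did not call it. Vehicle livers at 5 h read 0.0584, 0, 172, 0.0448, 9.52, 7.25, 7.81 and 17.4 CPM. Near-zero and higher libraries were therefore present without acetaminophen too. Its kidney ratio at 10 h was also the lowest of the members, at 0.0898. Kidney vehicle at 10 h read 9.85, 6.39, 8.08, 6.12, 16, 0, 4.33 and 10.2 CPM, and kidney acetaminophen 0.0616, 8.80, 0.228, 7.91, 13.2, 0, 0.162 and 0 CPM. Near-zero kidney libraries were 5 of 8 with acetaminophen and 1 of 8 with vehicle, the same split as in liver at 10 h. By the stated number of rats both tissues came from the same animals, so the splits are not separate observations. In rising order, acetaminophen livers at 5 h began with 0, 0 and 4.27 CPM. Kidneys at 5 h began with 0, 0.104, 0.110 and 6.38 CPM with vehicle, and with 0.0458, 0.0601 and 3.68 CPM with acetaminophen. Near-zero libraries at 5 h were thus no more frequent with acetaminophen than with vehicle. The ranges of the 2 kidney groups of 10 h overlapped, with a log2 change of -1.02 ± 1.05 and an edgeR adjusted p of 0.773.

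A transcript of 3445 bases also ranged widely, from 0.000341 through 14.2 to 33.8 CPM in vehicle livers at 10 h and from 1.28e-05 through 0.954 to 19.7 CPM in acetaminophen livers. In all, 4 members spanned at least 10-fold among vehicle livers at 10 h (5% of members, beside 1.73% of the 12398 transcripts), and none of the 4 was called. Reads that fit several transcripts are divided by the authors' model, which leaves estimated counts that are not whole. Counts were whole in all 64 libraries for 32 members (40%, beside 58% of the 12398). Of these 32, 30 were called at 10 h, against 22 of the 48 others, with median log2 changes of -1.01 and -0.99. The choice used this contrast, in which 6.08% of all transcripts were called lower. The shares called among all transcripts with whole counts and among the rest were not worked out. The part of read division in these levels was not tested.

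Kidney at 10 h was the measurement the choice did not use. With 64 libraries from the stated 32 rats, these kidneys would come from the same animals as the livers that chose the members. Differences between animals can enter both tissues, so kidney at 10 h is not independent of the choice. Most members lay near the vehicle level there, but a smaller share than of the 12398 transcripts. The kidney ratio at 10 h had a median of 0.977, with 1.01 over the 12398 transcripts. It lay between 0.8 and 1.25 for 56 of 80 members (70%, beside 90.1% of the 12398), at or under 0.67 for 10 members (1.57% of the 12398) and at or over 1.5 for 2 (1.20%). Of 69 members that passed the filter on low counts in kidney, edgeR called 2 lower and 0 higher, beside a background of 0.648% lower and 0.694% higher. An unadjusted p under 0.05 was found for 13 of the 69 (18.8%), beside 13.2% of all transcripts. The median log2 change was -0.09, with -0.00 over all transcripts tested, and 25 of 69 were positive. The other 11 members were too low in kidney to be tested.

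The first of the 2 was a transcript of 1212 bases with whole counts in every library. Its kidney vehicle libraries at 10 h ran from 30.4 through 34.6 to 39.4 CPM and the acetaminophen libraries from 15.6 through 22.3 to 28 CPM, with no overlap. It fell by 0.64 ± 0.11 on the log2 scale in kidney (edgeR adjusted p = 0.00374), from 34.9 ± 3.51 to 22.3 ± 4.09 CPM (mean ± SD, n = 8 each). Among the 12398 transcripts 0.266% were lower in kidney without overlap. In liver at 10 h it ran from 9.56 through 11.1 to 15.1 CPM with vehicle and from 2.31 through 5.27 to 7.52 CPM with acetaminophen, a log2 change of -1.15 ± 0.17. The call in kidney was made with each of the 16 kidney libraries of 10 h left out in turn and in 6 of 6 other fits.

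The second was a transcript of 3168 bases that shares its length with 2 other members and had counts that were not whole in any library. Its kidney vehicle libraries at 10 h ran from 52.7 through 83.2 to 105 CPM and the acetaminophen libraries from 32.0 through 39.4 to 63.7 CPM, so the groups overlapped. It fell by 0.88 ± 0.23 on the log2 scale (edgeR adjusted p = 0.0465). With single libraries left out it was called in 5 of 16 fits, with an adjusted p of up to 0.0987, and in 3 of 6 other fits, up to 0.0639. In liver at 10 h it ran from 12.3 through 31.1 to 42.3 CPM with vehicle and from 7.47 through 16.2 to 27 CPM with acetaminophen.

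**Figure D4:**
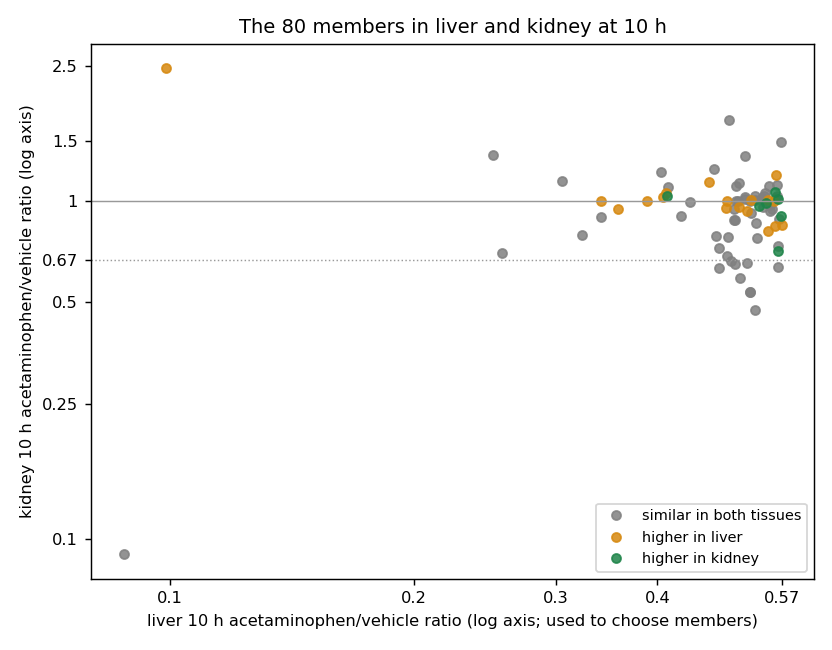
Each point is a member; the x axis is the liver ratio of acetaminophen over vehicle at 10 h, which chose the members, and the y axis the kidney ratio at 10 h, both on log axes. Points crowd at the liver limit of 0.57 and around a kidney ratio of 1; 10 members lie at or under the dotted line at 0.67, and ENSRNOT00000043736 stands alone at 0.0877 and 0.0898.

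At 5 h in kidney, where the choice excluded ratios of 0.67 or lower, edgeR called 2 of the 69 members tested. A 660-base transcript was higher, with a log2 change of 1.26 ± 0.21, beside a background of 2.79% called higher. The 2428-base transcript was lower, at -0.34 ± 0.09, beside 2.29% called lower. In kidney at 10 h neither was called: the first gave -0.09 ± 0.21 and the second 0.14 ± 0.09.

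Most members were present in both tissues, and some were mainly liver transcripts. In vehicle tissue at 10 h, 18 members (22.5%) were at least 4-fold higher in liver than kidney by median CPM plus 0.5, beside 5.67% of the 12398 transcripts. A further 7 (8.75%) were at least 4-fold higher in kidney, beside 14.2%, and 55 (68.8%) lay between, beside 80.2%. Kidney medians were under 1 CPM for 19 members (23.8%), beside 3.98%. With edgeR, 54 of 80 members were higher in liver and 9 higher in kidney, beside a background of 30.6% and 39.7% of all transcripts. With limma on log2(TPM + 1) the split was 28 and 27, beside 8.54% and 80.7% of all transcripts. The median of all transcripts was -0.13 on the log2 scale in edgeR and -0.98 in that fit. The vehicle livers at 10 h in this comparison also entered the choice.

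The 18 members higher in liver included 5 of the 8 members above 100 CPM, and 15 of the 18 had kidney medians under 1 CPM. Their median log2 change in liver at 10 h was -1.06, against -1.0 for the 55 similar members and -0.76 for the 7 higher in kidney. The test called 16 of the 18, 32 of the 55 and 4 of the 7, beside 6.08% of all transcripts called lower. No overlap was seen in 5, 5 and 0, beside 2.06% of the 12398 transcripts. The choice used this contrast, and shares by class over all transcripts were not worked out. The median vehicle liver levels at 10 h also differed, at 14.5, 6.56 and 5.36 CPM in the same order. The 15 with little kidney RNA summed to at most 8.45 CPM in each kidney library but 1. That library, acetaminophen replicate 8 at 5 h, held 43.6 CPM, 1.56% of the summed medians in acetaminophen livers at 5 h, and was the highest of its group for 9 of the 15. Its part in the kidney ratios of these members was not tested.

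Of the 7 members higher in kidney, the most abundant there measured 2811 bases. Its kidney libraries at 10 h ran from 441 through 700 to 736 CPM with vehicle and from 370 through 498 to 538 CPM with acetaminophen. The log2 change in kidney was -0.42 ± 0.12 with an edgeR adjusted p of 0.0724, which does not pass. In liver it ran from 10.7 through 15.5 to 20.03 CPM with vehicle and from 2.96 through 8.49 to 16.9 CPM with acetaminophen. A 2277-base and a 1186-base member followed, with kidney vehicle medians of 292 and 248 CPM and acetaminophen medians of 263 and 240 CPM. Their kidney log2 changes were -0.20 ± 0.12 and -0.14 ± 0.10, and neither was called. The highest kidney ratio of a member with at least 10 CPM in kidney was 1.74, in a 1265-base transcript that was not called. It ran from 9.04 through 14.8 to 27.7 CPM with vehicle and from 18.4 through 26.1 to 44 CPM with acetaminophen (log2 change 0.78 ± 0.40, edgeR adjusted p = 0.419).

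The members measured 381 to 5115 bases. Their median length was 2396 bases with quartiles of 1252 and 3325, beside 2049 with quartiles of 1337 and 3168 for the 12398 transcripts, a difference inside the quartile ranges. The limit of 0.57 cut through a continuous range. Just inside it lay members of 2277, 3584 and 516 bases with ratios of 0.568, 0.568 and 0.569. Just outside lay transcripts of 1462, 3155 and 1592 bases at 0.572, 0.574 and 0.574, and the last went from 1035 to 594 CPM.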

How the data were processed

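Per the labels' protocols, poly-A RNA was made into stranded libraries and read as 75-base single reads; the extraction text mentions culture cells although the samples are labelled liver or kidney. Each library has a deposited table of transcripts quantified with kallisto 0.42.4 on Rnor 6.0, per the submitters' processing notes. The deposited estimated counts are not normalized, and kallisto divides reads shared between transcripts. The TPM deposited by the authors account for length and depth; they entered only limma alternatives and one form of the member rule.

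The members and lists were chosen with earlier results of these data known. CPM were computed from the estimated counts over the file sum, and the member rule was applied as written. For tests, estimated counts were rounded and fitted with edgeR 4.0.16 in R 4.3.3 (filterByExpr, TMM, glmQLFit and glmQLFTest, two-sided), 32 libraries of a tissue together, or all 64 between tissues. Benjamini-Hochberg adjustment ran over all transcripts tested, with calls at an adjusted p under 0.05. A standard error is the log2 change over the square root of F. DESeq2 1.42.0 and limma 3.58.1 on log2(TPM + 1) or log2(TPM + 0.1) were alternatives. The fits were tested on simulated data. Every pair of libraries of a group differed by more than sampling noise (lowest chi-square per degree of freedom 14.1, over transcripts with at least 20 counts in the pair). Depth is given in the report as the total count per library.

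Of the 28420 identifiers, 0 occur in the reference table, so no tissue marker or planned gene list could be checked and no sequence could be matched. By the naming rule for that case, the member with the lowest 10 h ratio and the one with the highest vehicle level were named; the rule also took the largest rise in kidney at 10 h, but no member was called higher there. Other members singled out by length were chosen after their values were seen. Libraries of a group are taken as separate animals from the stated number of rats, though no label names the animal.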

Additional observations from a re-analysis of the deposited data

Results flagged for a closer look

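In 32 groups of 8 libraries, the highest or lowest value was compared with its neighbour relative to the range of the group. By this measure 7 stood apart. Chance would flag about 1 group in 20 if the values followed a normal distribution. That was not checked, and several of the flagged groups held values near 0, so the rate need not hold here. The values of ENSRNOT00000043736 stood apart at the upper end in 4 groups. Its highest library read 103 CPM in liver vehicle at 10 h, where the next read 9.19, and 172 CPM in liver vehicle at 5 h, where the next read 17.4. In liver acetaminophen at 5 h it read 44.2 CPM beside 8.92, and in kidney vehicle at 5 h 27.52 beside 8.38. The transcript ENSRNOT00000051244, nearly absent from kidney, read 17.4 CPM in 1 kidney acetaminophen library at 5 h, where the next read 3.34. In kidney vehicle at 5 h its highest library read 1.496 CPM and the next 0.267. The median log2 difference of the members from the vehicle median was -0.76 in replicate 6 of liver vehicle at 5 h, and the next lowest of that group was -0.04.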

How the results depend on the processing

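No paired analysis was possible because the replicate numbers were given in accession order and pair no samples. The number of members moved from 80 to 40 with the authors' TPM in place of CPM (30 of them among the 80), to 33 with a limit of 0.5 and to 228 with a limit of 0.67. Group means in place of medians gave 65, of which 29 were among the 80. A pseudocount of 0.1 CPM gave 97 (65 shared), 1 CPM gave 60 (52 shared) and TMM scaling 89 (61 shared). Leaving out each liver library of 10 h in turn gave 68 to 116, with 60 to 76 shared. Leaving out the liver and kidney libraries numbered 65 to 68, all of 5 h, gave 81, with 58 shared. For calls among the members, limma on log2(TPM + 1) and log2(TPM + 0.1) gave 3 and 2 in liver at 5 h in place of 0, and DESeq2 gave 6 in kidney at 5 h in place of 2, where it called 7.55% of all transcripts. In kidney at 10 h the 2 calls became 1 without the filter and 1 with limma at either pseudocount, and 1 to 3 with single libraries left out. In vehicle kidney over time, DESeq2 called 1 in place of 0. Counts stayed within 1.5 times in 57 of 77 alternatives. The kidney fit of 10 h without acetaminophen replicate 6, the library numbered 56, entered both numbers under 2 names. The cause of the other shifts was not tested. The alternatives without replicate 6 of liver vehicle at 5 h were chosen after seeing the data and gave 70 members, 56 calls in liver at 10 h and 0 at 5 h. Of the 80 members, 46 lay between 1 and 10 CPM in vehicle liver at 10 h; how far depth limits their calls was not tested.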
